A study of Mus musculus with 19 samples.

Results

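Oxidative phosphorylation genes were followed in the CA1 region of the dorsal hippocampus of young mice, old mice and old mice that received inhibitors of 3 microRNAs. Members were the protein-coding genes whose symbols mark a structural subunit of the respiratory chain or of ATP synthase (mt-Nd, mt-Co, mt-Cytb and mt-Atp in the mitochondrial genome, and Nduf, Sdh, Uqcr, Cox4 to Cox8 and Atp5 in the nucleus) and that reached 5 reads in no fewer than 50% of the 19 libraries. Of 96 genes that matched by symbol, 90 passed this filter, out of 19286 genes tested and 48709 genes counted. The 90 members comprised 8 of the 13 mitochondrially encoded genes and 82 of 83 nuclear genes. By symbol the latter fell into 36 genes of complex I, 4 of complex II, 8 of complex III, 17 of complex IV and 17 of complex V. Membership and complex follow the symbol alone, so Ndufa4 counts under complex I, and Atp5s, named Dmac2l in RefSeq, under complex V.

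The mice were male C57B/6J wild-type animals. The young group (6 libraries, age 3 months) and the old control group (6 libraries, age 16.5 months) received control (scrambled) oligonucleotides, and the old anti-miR-mix group (7 libraries, age 16.5 months) received a mixture of inhibitors of miR-148a-3p, of miR-146a-5p and also of miR-181a-5p. All oligonucleotides were carried by lipid nanoparticles into the dorsal hippocampus. Polyadenylated RNA of the microdissected CA1 was sequenced as single-end reads. Titles of control-oligonucleotide libraries, young and old, also begin with the experiment's name, anti-miR-mix, and the labels do not say how many libraries an animal gave. Where nothing states that libraries came from separate animals, p-values measure only the spread between these libraries. The comparison of old control with young libraries addresses age, that between the old groups addresses the inhibitors, and that of old anti-miR-mix with young libraries asks how far treated old mice stood from young mice. The 3 comparisons share their groups in pairs, so their values are given side by side.

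Oxidative phosphorylation is the last stage of respiration in the inner mitochondrial membrane. Complexes I and II take electrons from NADH and succinate, complex III passes them to cytochrome c, and complex IV, cytochrome c oxidase, passes them to oxygen. Complexes I, III and IV pump protons as they do so, and complex V, ATP synthase, uses the return of these protons to make ATP. Complex II is built from nuclear genes alone, while the other complexes combine nuclear subunits with core subunits that are transcribed from the mitochondrial genome as long polycistronic RNAs. Neurons depend heavily on this pathway for ion pumping and synaptic transmission.

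Each library held between 26653511 and 38908947 assigned reads, with group means of 31850000 in the young, 31390000 in the old control and 31590000 in the treated group. Marker genes of CA1 pyramidal neurons (Wfs1, Fibcd1, Pou3f1, Mpped1 and Spink8) summed to 670.7 to 958.7 CPM (counts scaled to library size) in the 19 libraries. The sums were 34.21 to 47.02 CPM for 4 markers of the neighbouring CA3 region and 44.6 to 110.3 CPM for 5 markers of dentate granule cells. Sums over different genes do not measure how much of each region a library held. Old control replicates 5 and 6 were more alike than any other pair of a group, with a chi-square of 2.18 per degree of freedom against 6.10 for the next closest of 51 pairs. They differed by more than sampling noise and were kept as 2 libraries, and results were also computed with them as 1. A second deposited table had been adjusted, gene by gene, for a whole number from 1 to 4 per library. What this number stands for is not given in the sources used here, and it is called the processing group below. The old control libraries fell in groups 1, 2 and 4 only. In bulk tissue, fewer cells of a type and less RNA per cell cannot be told apart.

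Of the 13 protein-coding genes of the mitochondrial genome, 5 were listed at 0 reads in all 19 libraries: mt-Co2 and mt-Co3 (core subunits of complex IV), mt-Atp6 and mt-Atp8 (subunits of ATP synthase) and mt-Nd4l (complex I). A count of 0 at this depth allows up to 3 reads per library. The sixth gene below the filter was nuclear Cox8c, also listed at 0 in all libraries. The mouse nuclear genome carries a copied stretch of the mitochondrial genome on chromosome 1, annotated as a row of pseudogenes between positions 24611535 and 24616197 of GRCm38 on the minus strand. The pseudogenes Gm28661, Gm10925, Gm28437, Gm10222, Gm28438 and Gm28439 were identical over their full aligned length to mt-Co2, mt-Atp6, mt-Co3, mt-Nd4l, mt-Nd3 and part of mt-Nd4, and Gm29216 matched part of mt-Co1 at 482 of 483 aligned bases. The identity is shown here for 3 of the genes listed at 0, each with its chromosome 1 copy over 30 bases from the middle of the aligned stretch (GENCODE M21 transcripts, GRCm38, 5′ to 3′ on the strand of the gene).

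mt-Co2, chrM:7338-7367, plus strand: aatatactgactatgaagacctatgctttg
Gm28661, chr1:24615211-24615240, minus strand: aatatactgactatgaagacctatgctttg
mt-Atp6, chrM:8251-8280, plus strand: tgagctggagccgtaattacaggcttccga
Gm10925, chr1:24614298-24614327, minus strand: tgagctggagccgtaattacaggcttccga
mt-Co3, chrM:8983-9012, plus strand: ctctagaagtcccactacttaatacttcag
Gm28437, chr1:24613566-24613595, minus strand: ctctagaagtcccactacttaatacttcag

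Reads were 50 bases long, so every 50-base window of each mitochondrial gene was looked for in all other annotated transcripts. All windows of mt-Co2 (100%), 99.9% of mt-Co3, 99.5% of mt-Atp6 and 98.8% of mt-Nd4l recurred in another gene, and each of these 4 genes was listed at 0. mt-Nd3, with 98.0% of its windows shared, had 7 to 22 reads per library. mt-Nd4 (62.2%) and mt-Co1 (51.1%) were abundant, with 95133 to 149925 and 285709 to 468936 reads. mt-Nd2 (8.2%) and mt-Nd5 (7.6%) shared few windows, and mt-Nd1, mt-Cytb and mt-Nd6 shared none. mt-Atp8 was the exception, with 0% of windows shared and 0 reads. It overlaps mt-Atp6 in the annotation and lies between mt-Co2 and mt-Atp6, which both have copies on chromosome 1. Only annotated transcripts were searched, so 0% does not show that mt-Atp8 lacks a nuclear copy. The chromosome 1 copies held few reads themselves, from 13 to 32 in Gm10925, from 4 to 21 in Gm29216 and at most 9 in any of the others. How the deposited counts treated reads that map to several places is not given in the sources used here, and its part in the listed zeros was not tested.

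**Figure D1:**
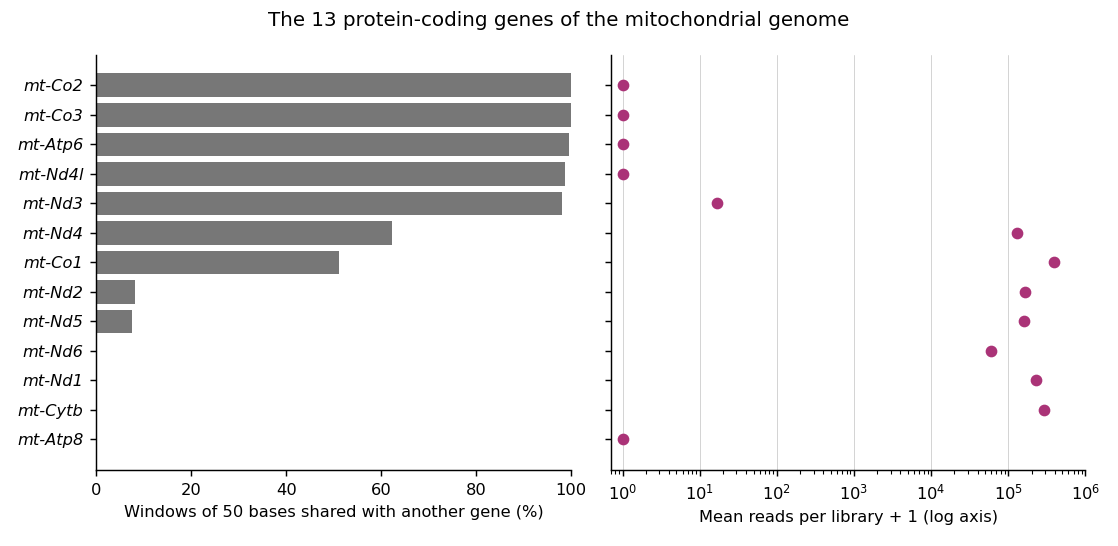
The left panel gives, for each of the 13 mitochondrially encoded genes, the percent of its 50-base windows that recur in another annotated transcript, and the right panel gives its mean reads per library plus 1 on a log axis. The 5 genes with 98.0% or more of windows shared lie at or near 0 reads, mt-Nd4 and mt-Co1 combine a large shared part with high counts, and mt-Atp8 is at 0 reads with no window shared with an annotated transcript.

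The 7 abundant mitochondrially encoded members were the most highly expressed of the pathway. Per length, in reads scaled to exon length and library size (RPKM, mean of 19 libraries), mt-Cytb stood at 8168, mt-Co1 at 7937, mt-Nd1 at 7650, mt-Nd2 at 5095, mt-Nd6 at 3691, mt-Nd4 at 3017 and mt-Nd5 at 2772. mt-Nd3 stood at 1.42 RPKM. The highest nuclear subunit per length was Cox8a of complex IV at 336.8 RPKM, and the medians of the nuclear subunits were 38.9 (complex I), 52.5 (complex II), 58.0 (complex III), 29.7 (complex IV) and 30.9 RPKM (complex V). Mitochondrial genes therefore filled most of the reads of the pathway. The levels of mt-Co1, mt-Nd4 and mt-Nd3 carry the limit of shared windows given above. Some nuclear levels carry it too: of 83 nuclear genes (the members and Cox8c), 7 shared more than 20% of their windows. The median over these 83 genes was 1.2%.

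In old control compared with young libraries, RNA of the mitochondrial genome lay higher, with 2 genes past the threshold, while the nuclear subunits as a group stood near 0. The log2 fold change was above 0 for all 8 mitochondrially encoded members, where 52.2% of all genes were above 0, with a median of 0.21 and a range from 0.20 to 0.28, against a median of 0.003 for the 82 nuclear members and 0.006 for all genes tested. mt-Co1 and mt-Nd5 rose past an adjusted p of 0.05 by edgeR's quasi-likelihood test, and nuclear Atp5g1 fell, so that 3 of 90 members were called where 2.67% of all genes were (1.32% higher and 1.34% lower). At an unadjusted p under 0.05, 12 members were higher and 1 was lower, where 18.1% of all genes passed (9.14% higher and 8.92% lower). Of these 12, 7 were mitochondrially encoded. The 7 abundant mitochondrial genes varied together, with the same 3 libraries highest in each, so the 8 members are not independent observations.

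mt-Co1 (ENSMUSG00000064351, chrM:5328-6872, plus strand) encodes the catalytic subunit of cytochrome c oxidase. Its lowest, median and highest log2 CPM were 13.33, 13.44 and 13.56 in young, 13.45, 13.68 and 13.78 in old control and 13.51, 13.62 and 13.75 in old anti-miR-mix libraries. In each old group 5 libraries lay above every young library, and the groups overlapped. The log2 fold change of old control over young libraries was 0.21 (SE 0.055, edgeR adjusted p = 0.044), a rise of 15.7%. mt-Nd5 (ENSMUSG00000064367, chrM:11742-13565, plus strand) encodes a proton-pumping subunit of complex I. It ranged from 12.06 to 12.25 (median 12.14) in young, from 12.21 to 12.62 (median 12.43) in old control and from 12.11 to 12.55 (median 12.36) in old anti-miR-mix libraries. Here 4 libraries of each old group exceeded the highest young library. The log2 fold change of old control over young libraries was 0.28 (SE 0.074, edgeR adjusted p = 0.0456).

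These calls stood close to the threshold. The mt-Co1 call was lost without young replicate 1, 3, 4 or 6, old control replicate 1, 2, 3, 5 or 6 or replicate 7 of the treated group, with adjusted p from 0.0526 to 0.105 by edgeR. The mt-Nd5 call was lost without any young replicate, without old control replicate 2, 3, 5 or 6 and without old anti-miR-mix replicate 5 or 7, with adjusted p from 0.0502 to 0.112 by edgeR. The size of the difference held more firmly than the call: over 16 alternative settings and 19 left-out libraries the log2 fold change stayed between 0.17 and 0.25 for mt-Co1 and between 0.23 and 0.32 for mt-Nd5.

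The other mitochondrially encoded members had differences of the same size that missed the threshold (edgeR, old control over young libraries). mt-Nd4 of complex I differed by 0.24 on the log2 scale (SE 0.071, adjusted p = 0.064), mt-Nd6 by 0.27 (SE 0.082, adjusted p = 0.0761) and mt-Cytb, the electron-carrying core of complex III, by 0.21 (SE 0.066, adjusted p = 0.0888). mt-Nd1 and mt-Nd2, membrane subunits of complex I, gave 0.21 (SE 0.074, adjusted p = 0.132) and 0.21 (SE 0.086, adjusted p = 0.194). mt-Nd3, at 7 to 22 reads, gave 0.20 with an SE of 0.195 and could not resolve a difference of this size. mt-Nd6 is the single member transcribed from the other strand of the mitochondrial genome. The library kit did not mark strand, and mt-Nd6 overlaps the end of mt-Nd5, so reads of the 2 strands cannot be told apart in it.

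**Figure D2:**
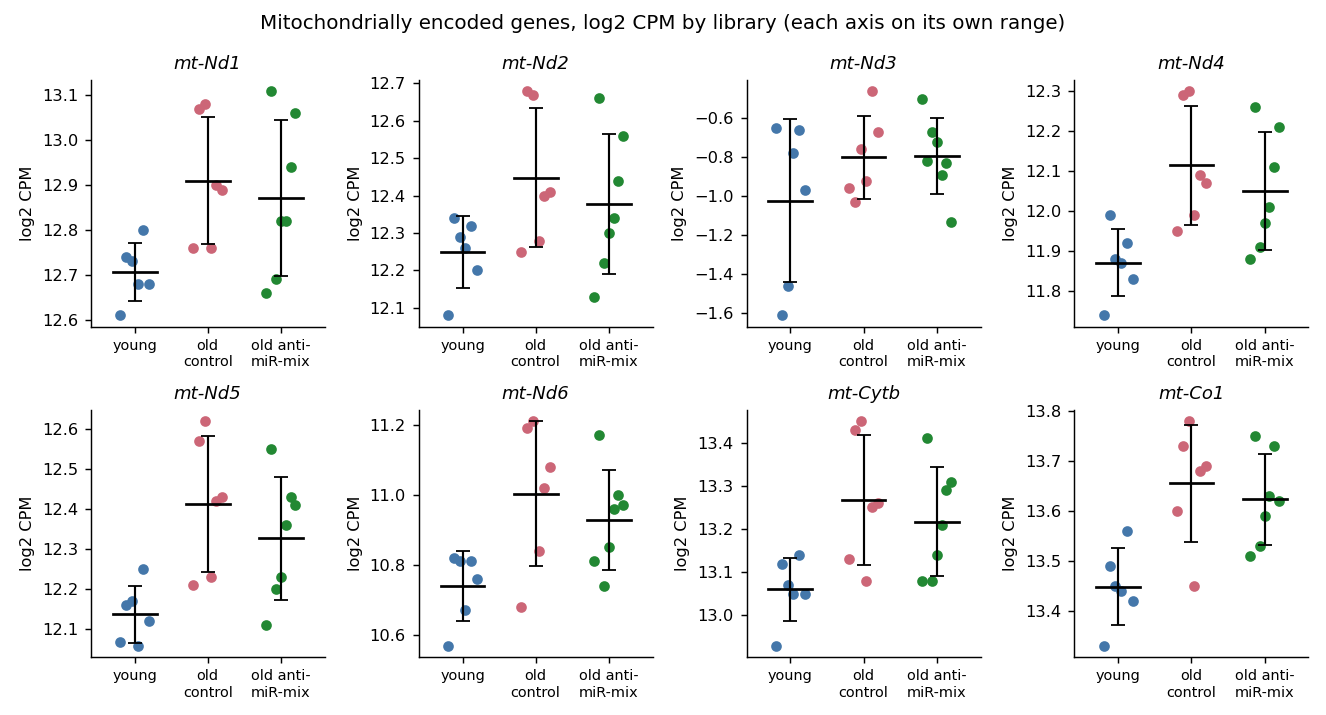
Log2 CPM of the 8 mitochondrially encoded members in each library, with the mean and SD of each group in black and an axis range of its own for each gene. In the 7 abundant genes most old libraries lie above the young ones without a gap between the groups, as in mt-Co1, where young libraries span 13.33 to 13.56 and old control libraries 13.45 to 13.78.

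The summed reads of the members gave the same picture as a share of each library. The 8 mitochondrially encoded members took 3.83 to 4.40% of assigned reads in young libraries (mean 4.13% ± 0.195, SD, n = 6), 4.29 to 5.36% in old control libraries (4.77% ± 0.428, n = 6) and 4.10 to 5.39% in old anti-miR-mix libraries (4.68% ± 0.448, n = 7). The highest young library was exceeded by 4 of 6 old control and 5 of 7 old anti-miR-mix libraries. The 82 nuclear members took 0.789% ± 0.00924, 0.786% ± 0.0296 and 0.792% ± 0.0448 in the same order, so that mitochondrial reads numbered 5.24, 6.08 and 5.94 per nuclear member read. The share is a sum over the members and was not tested on its own.

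**Figure D3:**
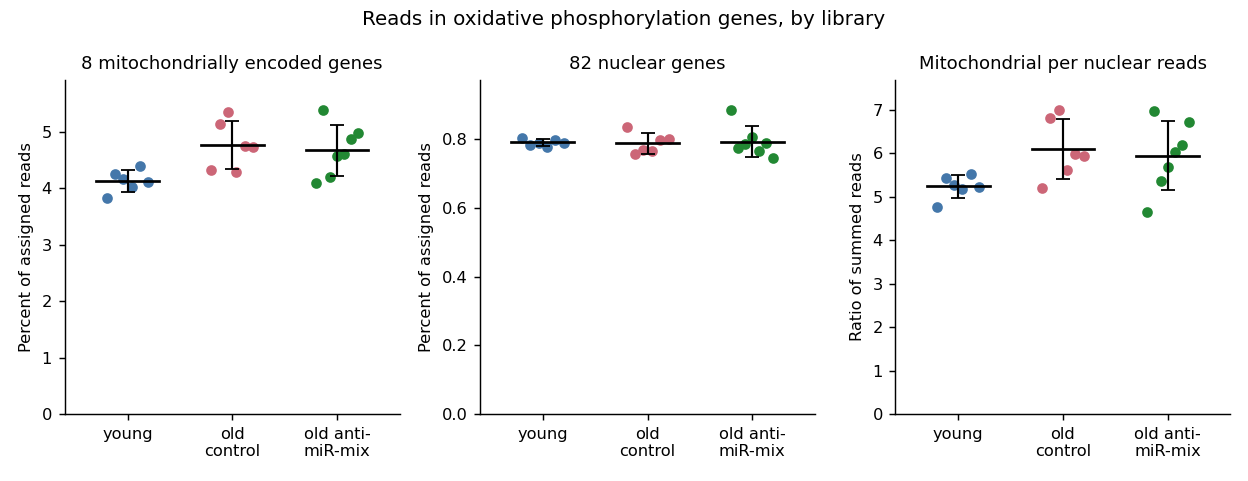
Percent of assigned reads in the 8 mitochondrially encoded members, percent in the 82 nuclear members, and the ratio of the 2 sums, with each library as a point and group means and SD in black. The mitochondrial share averages 4.13% in young and 4.77% in old control libraries with overlapping points, whereas the nuclear share averages 0.789% and 0.786%.

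The libraries of a group were not evenly placed. Old control replicates 2 and 3 and old anti-miR-mix replicate 2 were the 3 highest of all 19 libraries in each of the 7 abundant mitochondrial genes, and young replicate 1 was among the 3 lowest in each. These 3 high libraries had 29145940, 26803147 and 27420591 assigned reads, below the group means, while young replicate 1 had 27554659. The part of depth was not tested. Within processing groups 1, 2 and 4, the mean mitochondrial share of old control libraries exceeded that of young libraries by 0.915, 0.564 and 0.495 percentage points, against 0.641 over all libraries. Each of these processing groups held 2 old control libraries, beside 1, 1 and 2 young libraries. The young library of group 1 was replicate 1, and the old control libraries of group 4 were the closely alike replicates 5 and 6. With processing group as a factor in the edgeR fit, 0 of 8 mitochondrially encoded members were called in this comparison, where the main fit called 2, and the log2 fold changes of mt-Co1 and mt-Nd5 were 0.21 (adjusted p = 0.0703) and 0.26 (adjusted p = 0.077).

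Marker levels of other cell types also differed with age. The oligodendrocyte markers Mbp, Mog, Mobp and Mag summed to 4424 to 7038 CPM in young and 4007 to 4766 CPM in old control libraries, and 2 of 4 were called lower. The 5 microglial markers (Cx3cr1, P2ry12, Tmem119, Csf1r and C1qa) summed to 245.7 to 308.0 CPM in young and 301.1 to 349.8 CPM in old control libraries, and 1 of 5 was called higher. The 5 pan-neuronal markers summed to 6532 to 7061 and 6633 to 7099 CPM, with 0 of 5 called. The 3 markers of oligodendrocyte precursors summed to 169.2 to 187.4 and 127.1 to 151.1 CPM, without overlap, and 1 of 3 was called lower. Of these 3, 1 had a log2 fold change below 0, at -0.91, and 2 were above 0, at most 0.05 (median 0.007). The 4 CA3 markers summed to 42.71 to 47.02 and 34.21 to 40.89 CPM, also without overlap. All 4 had log2 fold changes below 0, and 1 of 4 was called lower. As single genes, 1 of 3 precursor and 1 of 4 CA3 markers were lower without overlap. The 3 choroid plexus markers all had log2 fold changes above 0, from 0.29 to 2.08, and astrocyte markers lay on both sides of 0, with 0 called in either list. Choroid plexus sums ran from 15.93 to 27.63 CPM in young and from 19.40 to 79.97 CPM in old control libraries. Old control replicates 5 and 6 stood at 76.33 and 79.97 CPM, and old anti-miR-mix replicate 2 at 102.2 CPM. Among all genes, 1.32% were called higher and 1.34% lower, and 1.25% were higher and 1.28% lower without overlap. All markers given here were detected, and their part in the mitochondrial difference was not tested.

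In old anti-miR-mix compared with old control libraries, 0 of 90 members were called by edgeR, where 0.669% of all genes were, each of them higher (0% lower). At an unadjusted p under 0.05 there was 1 member, Cox6b2, where 10.5% of all genes passed (7.16% higher and 3.35% lower), and DESeq2 and limma-voom also called 0 members. The median log2 fold change of the 8 mitochondrially encoded members was -0.06, with 1 of 8 above 0, and that of the 82 nuclear members -0.003, with 39 above 0, where 50.2% of all genes were above 0. The differences of mt-Co1 (-0.03, 95% interval from -0.14 to 0.07), mt-Nd5 (-0.09, from -0.23 to 0.05), mt-Cytb (-0.05, from -0.18 to 0.07) and mt-Nd1 (-0.04, from -0.18 to 0.10) all had intervals that include 0. These intervals take the estimate and its standard error with a normal multiplier. Within processing group 1 the mitochondrial share was 0.642 percentage points lower in the single old anti-miR-mix library than in 2 old control libraries, and within groups 2 and 4 it was 0.363 and 0.119 points higher, so no direction held across them.

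In old anti-miR-mix compared with young libraries, the mitochondrially encoded members were again above 0 in all 8 cases, with a median log2 fold change of 0.18 and a range from 0.14 to 0.21, against 0.007 for the nuclear members, of which 50 of 82 were above 0, where 51% of all genes were. Of the 8, 0 passed the threshold by edgeR and 6 had an unadjusted p under 0.05, where 19.6% of all genes did (11.3% higher and 8.31% lower). As before, the 8 are not independent observations, and the young libraries are the same as in the comparison with age. mt-Co1 came closest (0.18, SE 0.053, adjusted p = 0.0512), followed by mt-Nd5 (0.19, SE 0.072, adjusted p = 0.124) and mt-Nd4 (0.18, SE 0.068, adjusted p = 0.127). mt-Co1 was called by edgeR without young replicate 5, without old control replicate 3 or 4 and without treated replicate 1 or 3, with adjusted p from 0.0283 to 0.0471. In all, 1 of 90 members was called, Atp5g1, where 6.2% of all genes were (4.57% higher and 1.63% lower). The mitochondrial share was higher than in young libraries within each of the 4 processing groups, by 0.273, 0.928, 0.371 and 0.613 percentage points, each from 1 to 3 libraries a group. Within group 1, with 1 library of each kind, nuclear members were higher as well, and the difference between mean mitochondrial and mean nuclear log2 CPM was -0.05, against 0.32, 0.10 and 0.19 in the others.

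Nuclear subunits differed little in any comparison. In old control against young libraries 74 of 82 had a log2 fold change within 0.1 of 0, in old anti-miR-mix against old control libraries 77 of 82, and in old anti-miR-mix against young libraries 73 of 82. The median standard error of these differences was 0.048, 0.047 and 0.047. The 8 genes outside this limit with age were Ndufb3, Cox5b, Cox4i2, Cox7b2, Cox8b, Atp5g1, Atp5l and Atp5s. Of these, Cox8b (mean 5.7 reads per library), Cox7b2 (8.3) and Cox4i2 (24.2) lay closest above the filter on low counts.

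**Figure D4:**
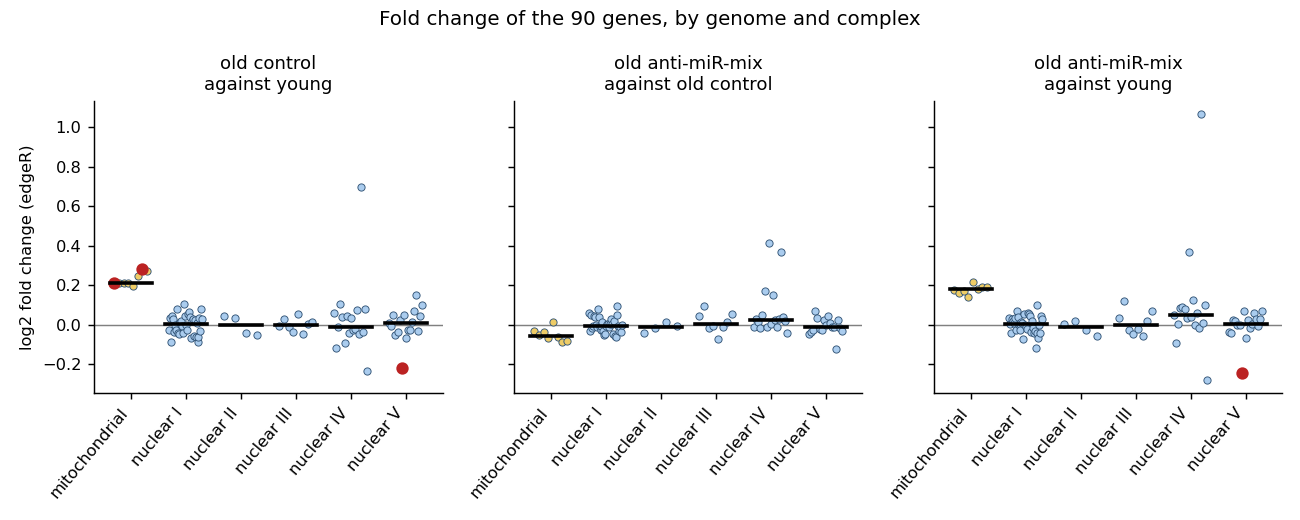
Log2 fold change of each of the 90 members in the 3 comparisons, grouped into the mitochondrially encoded genes (yellow) and the nuclear subunits of complexes I to V (blue), with medians as black lines and genes past an adjusted p of 0.05 in red. The mitochondrial genes sit above 0 as a group in both comparisons with young libraries (medians 0.21 and 0.18) and the nuclear complexes stay near 0.

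Among the 36 nuclear subunits of complex I, 0 were called in any comparison. Among all genes, 2.67% were called with age, 0.669% with the inhibitors and 6.2% in treated old against young libraries. The lowest p in old control against young libraries belonged to the accessory subunit Ndufb3 (log2 fold change 0.10, SE 0.046, edgeR adjusted p = 0.229). Ndufs4, an accessory subunit needed for a stable complex, gave -0.06 (SE 0.051) with age and -0.06 (SE 0.049) with the inhibitors. In old anti-miR-mix against young libraries it gave -0.12 (SE 0.049, edgeR adjusted p = 0.173). Ndufa6 gave 0.08 (SE 0.039, edgeR adjusted p = 0.498) in old anti-miR-mix against old control libraries. Ndufb9, the highest of complex I per length at 128.2 RPKM, differed by 0.04 (SE 0.044) with age.

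The 4 genes of complex II, which has no mitochondrially encoded subunit, had log2 fold changes from -0.05 to 0.05 with age and from -0.04 to 0.01 with the inhibitors. Of these 4, 0 were called, where 2.67% of all genes were called with age and 0.669% with the inhibitors. Sdha, which carries the catalytic flavin, had a median log2 CPM of 8.80 in young, 8.84 in old control and 8.78 in old anti-miR-mix libraries. Its difference with age was 0.05 (SE 0.030, edgeR adjusted p = 0.46). The 8 nuclear genes of complex III ranged from -0.04 to 0.05 with age, beside 0.21 for mitochondrially encoded mt-Cytb of the same complex. Uqcrc2, a core subunit facing the matrix, gave 0.05 (SE 0.038) with age and -0.07 (SE 0.037, edgeR adjusted p = 0.503) with the inhibitors.

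Within complex IV, mt-Co1 was the single mitochondrially encoded subunit with reads, as mt-Co2 and mt-Co3 were listed at 0. Of the mt-Co1 windows, 51.1% are shared. mt-Co1 rose by 15.7% with age, in a call that was lost in several of the fits given above. The major nuclear subunits Cox4i1, Cox6a1, Cox6b1, Cox7a2 and Cox8a differed by 4.3, 2.8, 3.2, -1.6 and 5.6%, with 0 of 17 nuclear subunits called where 2.67% of all genes were. Mitochondrial and nuclear subunits were not tested against each other. The nuclear subunit with the lowest p was Cox5b, which lies against the catalytic core. It ranged from 5.55 to 5.68 (median 5.63) in young, from 5.58 to 5.79 (median 5.78) in old control and from 5.63 to 5.79 (median 5.71) in old anti-miR-mix libraries, with overlap between the groups. Its log2 fold change was 0.10 (SE 0.041, edgeR adjusted p = 0.178) in old control and 0.09 (SE 0.039, adjusted p = 0.223) in old anti-miR-mix over young libraries.

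Complex IV subunits with isoforms were dominated by the form common to most tissues. Per length, Cox4i1 stood at 199.3 RPKM against 0.968 for Cox4i2, Cox6a1 at 245.8 against 7.70 for the striated-muscle form Cox6a2, Cox6b1 at 187.4 against 1.80 for the testis form Cox6b2, Cox7a2 at 91.1 against 2.06 for the striated-muscle form Cox7a1, and Cox8a at 336.8 against 0.491 for Cox8b. Cox7a2l, which takes part in joining complexes III and IV into supercomplexes, stood at 29.2 RPKM. It was 0.07 higher on the log2 scale with age (SE 0.032, edgeR adjusted p = 0.216). Ndufa4, once assigned to complex I and now counted with complex IV, stood at 104.7 RPKM and differed by -0.03 (SE 0.036) with age.

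Cox6b2 had the largest log2 fold change under the inhibitors of the 90 members, and it missed the threshold. Its lowest, median and highest log2 CPM were 0.70, 0.89 and 1.15 in young, 0.60, 0.89 and 1.08 in old control and 1.07, 1.22 and 1.63 in old anti-miR-mix libraries. In the treated group 6 of 7 libraries lay above every old control library, and the groups overlapped through replicate 1. The log2 fold change was 0.41 over old control (SE 0.112, edgeR unadjusted p = 0.00136, adjusted p = 0.104) and 0.37 over young libraries (SE 0.111, adjusted p = 0.0508), and -0.04 (SE 0.118) in old control over young libraries. The gene had 41 to 91 reads per library, and replicate 2 of the treated group stood apart at 1.63 with the others at 1.29 or below. Against young libraries edgeR called it without young replicate 5, old control replicate 2 or old anti-miR-mix replicate 1, with adjusted p from 0.0329 to 0.0473. Against old control libraries it was not called in any of the 15 alternatives for nuclear members or without any of the 19 libraries, where the log2 fold change ran from 0.34 to 0.46. Cox7b2, another isoform gene with 1 to 20 reads per library, gave 0.70 (SE 0.412), 0.37 (SE 0.350) and 1.06 (SE 0.382, edgeR adjusted p = 0.109) in old control over young, treated over old control and treated over young libraries.

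Atp5g1 was the single nuclear member called. It is 1 of 3 nuclear genes (Atp5g1, Atp5g2 and Atp5g3) that encode the same mature subunit c, the protein of the membrane rotor of ATP synthase, with different targeting sequences. Atp5g1 (ENSMUSG00000006057, chr11:96068852-96075670, minus strand, GRCm38) had a lowest, median and highest log2 CPM of 4.18, 4.30 and 4.47 in young, 4.05, 4.09 and 4.14 in old control and 3.92, 4.09 and 4.18 in old anti-miR-mix libraries. All 13 old libraries lay below every young library on this scale, with young replicate 3 and old anti-miR-mix replicate 4 both at 4.18 after rounding. As a plain percent of assigned reads these 2 libraries change places, at 0.001796 and 0.001859%. Among all genes, 1.28% were lower without overlap in old control and 0.627% in old anti-miR-mix than in young libraries, and Atp5g1 was 1 of 90 members in each. In the other direction 0 of 90 members were higher without overlap, where 1.25% and 1.79% of all genes were, which makes 2.54% and 2.42% in either direction.

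Atp5g1 fell by 0.22 on the log2 scale in old control (SE 0.052, edgeR adjusted p = 0.0289) and by 0.24 in old anti-miR-mix libraries (SE 0.050, adjusted p = 0.00426) relative to young libraries. The difference between the old groups was -0.025 (SE 0.051). The call against treated old mice was kept in all 15 alternatives counted for nuclear members and in all 19 fits with 1 library left out. The fit scaled to the reads of the nuclear members was left out of this count, since it scales these genes to their own reads. The edgeR call against old controls was lost without young replicate 4, the highest library at 4.47 (adjusted p = 0.0812), or without old control replicate 2, 3 or 5 (adjusted p = 0.0587, 0.0619 and 0.052). It was also lost with processing group as a factor (edgeR adjusted p = 0.073), with a log2 fold change of -0.20. Of the 50-base windows of Atp5g1, 11.1% recur in other transcripts, most often in the pseudogene Gm10039, and the counting of such reads is not given in the sources used here.

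The other genes of subunit c did not follow. Atp5g3, the most expressed of the 3 at 85.4 RPKM against 3.62 for Atp5g1 and 0.758 for Atp5g2, gave -0.07 (SE 0.088) in old control and -0.07 (SE 0.085) in old anti-miR-mix over young libraries. Atp5g2 gave 0.05 (SE 0.143) and 0.07 (SE 0.137), with 38.3% of its windows shared with other genes. Whether Atp5g1 differs from them in its change was not tested. Of the catalytic head, Atp5b (255.1 RPKM) gave -0.01 (SE 0.044) and -0.04 (SE 0.042) against young libraries, and over the 17 genes of complex V the median was 0.011 and 0.005.

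**Figure D5:**
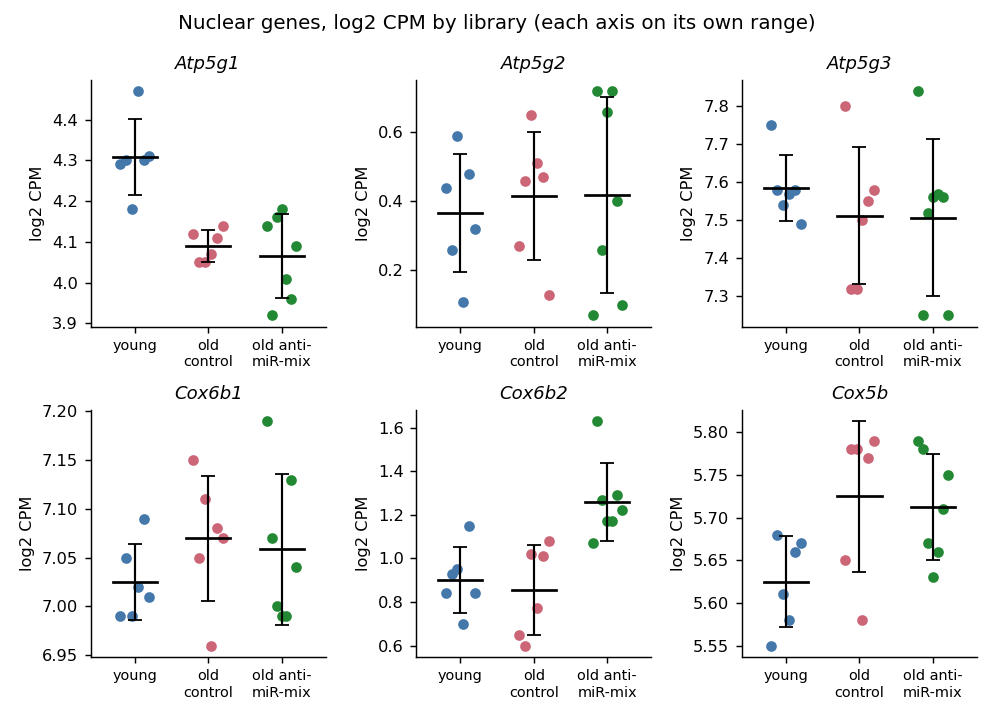
Log2 CPM of 3 genes of ATP synthase subunit c (Atp5g1, Atp5g2, Atp5g3) and 3 nuclear genes of complex IV (Cox6b1, Cox6b2, Cox5b) in each library, with group means and SD in black and an axis range of its own for each gene. Atp5g1 lies lower in both old groups (medians 4.09 and 4.09) than in young libraries (4.30), and Cox6b2 lies higher in old anti-miR-mix libraries (median 1.22) than in the other groups (0.89 and 0.89).

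Genes that build, feed or regulate the respiratory chain were described from lists beside the members. Of 47 assembly factors, 30 genes that copy, transcribe and process the mitochondrial genome, 16 enzymes of the tricarboxylic acid cycle, 14 regulators of mitochondrial biogenesis and 77 mitochondrial ribosomal proteins, 0 were called in any comparison, where 2.67, 0.669 and 6.2% of all genes were called with age, with the inhibitors and in treated old against young libraries. Their median log2 fold changes with age were 0.01, 0.012, 0.017, 0.001 and -0.002. Members at the lowest p included Ssbp1, the single-strand DNA-binding protein of mitochondria (0.16, SE 0.06, edgeR adjusted p = 0.169, with age), Lrpprc, which stabilises mitochondrial messenger RNA (-0.10, SE 0.04, adjusted p = 0.129, treated over young) and Dlat of the pyruvate dehydrogenase complex (-0.10, SE 0.03, adjusted p = 0.051, treated over young). Ppargc1a, a coactivator of respiratory genes, gave -0.08 (SE 0.05, edgeR adjusted p = 0.597) with the inhibitors. The 82 cytosolic ribosomal protein genes, short and abundant messages as well, had medians of 0.031, 0.03 and 0.055 in the 3 comparisons with 0 called.

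Of 14 genes listed as electron carriers, uncouplers and other carriers of mitochondria, 1 was called with the inhibitors and in treated old against young libraries, where 0.669 and 6.2% of all genes were. Ucp2, an inner membrane carrier of the uncoupling protein family that is found in microglia among brain cells, had a log2 CPM of 4.60 ± 0.28 (SD, n = 7) in old anti-miR-mix, 3.85 ± 0.14 (n = 6) in old control and 3.89 ± 0.16 (n = 6) in young libraries. It rose by 0.77 on the log2 scale over old control libraries (SE 0.11, edgeR adjusted p = 0.00277), without overlap, where 0.425% of all genes were higher, 0.0726% lower and 0.498% either way without overlap, and 0 of the 90 members were. Over young libraries it rose by 0.72 (SE 0.11, edgeR adjusted p = 0.000175). The microglial markers moved with it, with 2 of 5 called higher over old control libraries and 4 of 5 over young libraries, and a summed level of 341.9 to 452.4 CPM in old anti-miR-mix libraries. Their part in the Ucp2 difference was not tested. The Ucp2 calls were not followed through the alternative settings. With the inhibitors, calls among all genes numbered 129 in the main fit, 9 with processing group as a factor and 267 by DESeq2.

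Promoter sequence from RefSeq (GRCm38.p6, 250 bases before to 50 after the start) was matched for 68 of the 82 nuclear members, with 73 promoters in all. Promoters were searched on both strands for letters of factors known to act on respiratory genes. GCATGCGC, part of the palindrome of NRF1, was found in 13.7% of member promoters and 2.7% of all 32851 promoters. AAGATGGC, letters of YY1, was found in 13.7 and 2.7%, CCGGAAG of ETS factors such as GABPA in 21.9 and 8.9%, and AAGGTCA of ERRA in 8 of 73 member promoters and 4.7%. Among promoters of protein-coding genes that were tested here, the shares were 4.5, 3.7, 14.7 and 3.4%. A window of 30 bases is shown for each motif, with the motif in capitals, written 5′ to 3′ on the strand of the gene, where an opposite-strand motif appears as its reverse complement.

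Sdhb, NRF1, chr4:140961206-140961235, plus strand: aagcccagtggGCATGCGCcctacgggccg
Ndufs4, YY1, chr13:114388045-114388074, minus strand: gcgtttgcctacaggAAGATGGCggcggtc
Cox6b1, ETS, chr7:30626125-30626154, minus strand: ctcctctcgcagCTTCCGGccagtcggaat
Atp5g3, ERRA, chr2:73911361-73911390, minus strand: gttgttacaaagTGACCTTgagcgtcttcc

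The letters lay 54 bases before the start in Sdhb, 35 after it in Ndufs4, 28 before it in Cox6b1 and 52 before it in Atp5g3. Atp5g1, Cox6b2 and Cox5b, described above, held none of the 4 motifs in their windows. A match is a description of these letters, and none of the 4 genes shown passed the threshold in any comparison.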

How the data were processed

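CA1 tissue of 19 libraries in 3 groups was profiled by polyadenylated RNA sequencing (TruSeq RNA v2, single-end reads). According to the study's methods and the submitters' processing notes, reads were checked with FastQC 0.11.5, aligned to mm10 with STAR 2.5.2b and counted per Ensembl gene with featureCounts (Subread 1.5.1). Options for strand and for reads that map to several places are not given in the sources used here. The authors deposited raw counts per gene for each library. The authors also deposited a table of log2 CPM plus 1, from which a term proportional to a number per library had been removed gene by gene. That number was read back from 18761 genes and used only as the processing group. The deposited columns held no comparisons.

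Groups came from the sample labels. Genes that reached 5 reads in no fewer than 50% of libraries entered the test (19286 of 48709). edgeR 4.0.16 (R 4.3.3) fitted all groups together with TMM scaling, its quasi-likelihood test and Benjamini-Hochberg adjustment over all genes tested at 0.05. The code was tested on simulated data. Log2 CPM used a prior count of 2, and RPKM the merged exon length of GENCODE M21, which matched 48349 gene identifiers. Depth was 26653511 to 38908947 reads, and intervals cover the fitted spread between libraries. A floor of 3 reads covers counting error only. Alternatives were DESeq2 1.42.0, limma-voom 3.58.1, other scalings and filters, fits of 2 groups, processing group, replicate number, GC and length offsets, old control replicates 5 and 6 as 1 library, and each library left out. Genes were named by rule: mitochondrial members, per complex the lowest p and the highest level per length, called members, isoform genes, those nearest the filter, and per list the called gene or that of lowest p. Some marker genes are not reported here, and the sums leave them out. Members and lists were chosen with earlier results of these data known. No genome sequence was used here, so shared windows were searched in annotated transcripts.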

Additional observations from a re-analysis of the deposited data

Results flagged for a closer look

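Of 129 group values examined (log2 CPM of the members named by rule and the summed shares, in each of 3 groups), 10 had a highest or lowest library farther from its group than Dixon's 95% limit allows, and chance gives about 1 in 20. In old anti-miR-mix replicate 1, 5 nuclear subunits stood above the other 6 libraries of the group in log2 CPM. These were Ndufb9 at 7.26 (others 6.96 to 7.08), Ndufa4 at 7.33 (7.08 to 7.18), Uqcr11 at 5.35 (4.83 to 5.00), Uqcrb at 4.18 (3.95 to 4.05) and Cox7a2 at 6.63 (6.35 to 6.44). The same library had the highest share of reads in nuclear members, 0.883%, and the lowest ratio of mitochondrial to nuclear reads of its group. Cox6b2 was at 1.63 in old anti-miR-mix replicate 2 (others 1.07 to 1.29). In old control replicate 5, Ndufb4 was at 2.24 (others 1.95 to 2.05) and Cox8b, with few reads, at -1.67 (others -2.29 to -2.13). Among young libraries, Uqcrc2 was lowest in replicate 4 at 7.40 (others 7.49 to 7.53) and Atp5g3 highest in replicate 1 at 7.75 (others 7.49 to 7.58).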

How the results depend on the processing

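Counts of called members were small and moved with the settings. Over 16 alternatives the median log2 fold change of the mitochondrially encoded members ran from 0.164 to 0.226 with age, from -0.076 to -0.034 with the inhibitors and from 0.124 to 0.19 in treated old against young libraries. With 1 library left out it ran from 0.188 to 0.248, from -0.093 (without treated replicate 2) to -0.018 (without old control replicate 3) and from 0.146 to 0.201. With age, 3 of 90 members were called (2 mitochondrially encoded, 1 nuclear). DESeq2 called 6 (5 and 1). Without the filter on low counts, which raises the genes tested to 34642, 0 were called (0 and 0), as with processing group as a factor (0 and 0). Merging old control replicates 5 and 6 gave 1 (0 and 1), and this together with processing group as a factor, an alternative chosen after seeing the data, gave 0 (0 and 0). Library totals without TMM gave 1 mitochondrially encoded call, and scaling to the reads of the nuclear members gave 0. In treated old against young libraries 1 member was called (0 mitochondrially encoded, 1 nuclear). Library totals without TMM and DESeq2 each gave 2 (1 and 1). limma-voom, at least 10 reads in every library, and processing group as a factor or a linear term each gave 3 (1 and 2), with mt-Co1 and Cox6b2 added. GC and length offsets, and the combined alternative above, each gave 2 (0 and 2). With the inhibitors 0 members were called under any alternative. Replicate numbers showed no clear pairing of the libraries: 6 of 18 same-numbered pairs correlated above 0.1 (from -0.17 to 0.214). Among libraries numbered 1 to 6, 2 of 18 correlated best with their own number in both other groups. With replicate number as a block, 6 members were called with age (5 mitochondrially encoded and 1 nuclear) and 2 in treated old against young libraries (1 and 1). That block gave 651, 249 and 1192 calls among all genes in the 3 comparisons. The block with GC and length offsets gave 5 (4 and 1) and 2 (0 and 2). Leaving out 1 library at a time gave 0 to 4 calls with age (mitochondrially encoded 0 to 3, nuclear 0 to 1), 0 to 0 with the inhibitors, and 1 to 3 in treated old against young libraries (0 to 1 and 1 to 2). As a percent of reads in nuclear genes the young mitochondrial share was 4.342%, against 4.131% of all reads, and with 1 library left out the shares ran from 4.078 to 4.192% (young), 4.655 to 4.870% (old control) and 4.559 to 4.773% (old anti-miR-mix). The inhibitor difference of mt-Nd3, 0.016, turned to -0.024, -0.030 and -0.013 without old control replicate 1, 2 or 4 and to -0.039 and -0.008 without treated replicate 1 or 3, and was 0.102 without old control replicate 5. Among all genes, calls numbered 514, 129 and 1196 in the 3 comparisons, against 371, 9 and 1200 with processing group as a factor, 302, 36 and 1111 with replicates 5 and 6 as 1 library, and 914, 267 and 1520 by DESeq2. Beyond the construction of an alternative, the cause of these changes was not tested. Depth limits mt-Nd3, Cox7b2 and Cox8b, whose standard errors with age were 0.195, 0.412 and 0.379 on the log2 scale, against a median of 0.048 over the nuclear members.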
